A study of Mus musculus with 12 samples.

Results

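Rfxap, Rfx5, Rfxank, Ciita, B2m, H2-K1, H2-D1, H2-T23, Tap1 and Tapbp are 10 genes of the machinery that transcribes and assembles major histocompatibility complex (MHC) molecules. They were measured by 18 of the 41174 probes on an Agilent mouse expression array, out of 27670 gene names. A probe belonged to the set when its gene name on the array was that of a member, with C2ta accepted for Ciita. The genes were chosen by the measured log2 changes of Rfxap, which rose further in p400 knockdown than in Tip60 knockdown, so the Rfxap values below are a description and carry no p-value. The cells were E14 cells, a line of mouse embryonic stem cells. One well of cells per sample had been transfected for 72 hr with esiRNA, a pool of short RNAs cut by an endoribonuclease, at 0.33 ng/µl. Its target was p400, the ATPase encoded by Ep400 that remodels chromatin, or Tip60, the histone acetyltransferase encoded by Kat5 (also Htatip) and found in one complex with p400. EGFP esiRNA served as the control, so every group had been transfected.

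The p400 experiment held 4 two-colour arrays on 1 slide, each with p400 knockdown RNA against EGFP RNA. The p400 RNA carried Cy5 on replicates 1 and 3 and Cy3 on replicates 2 and 4. The Tip60 experiment held 4 Tip60 and 4 EGFP arrays of a single colour, on 2 slides that each held both groups, and Tip60 replicate 3 was left out of the test because the submitters set it aside as an outlier. The submitters call the replicates biological. The labels do not say whether the EGFP RNA of the p400 arrays and of the single-colour arrays came from the same wells. Precision is limited by how few arrays there are. RNA was taken from whole wells, so more cells with a transcript and more transcript per cell cannot be told apart.

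The knockdowns themselves were read first. The brightest Ep400 probe had log2 ratios of p400 knockdown over EGFP between -0.77 and -0.24 over the 4 arrays. Of the 2 other Ep400 probes tested, one ran from -1.24 to 0.06 and the other from -0.05 to 0.45, so the probes of the target did not all fall. The Kat5 probe stood between -0.30 and -0.19 in the Tip60 arrays of the fit and between 1.15 and 1.39 in the EGFP arrays, as log2 signal relative to the array's 75th percentile. On the p400 arrays its log2 ratios were -0.28, -0.41, -0.27 and -0.76, so by this probe Kat5 RNA was lower in both knockdowns. The brightest Ep400 probe stood between 1.57 and 1.68 in the Tip60 arrays of the fit and between 1.36 and 1.55 in the EGFP arrays. All 8 embryonic stem cell marker genes looked for, Pou5f1 and Nanog among them, were well above background on every array of the fits. In p400 knockdown 3 of them were called lower (limma, adjusted p below 0.05) and 0 higher, beside 14.9% and 20.1% of all genes. These were Sox2, Esrrb and Dppa5a, with log2 differences of -0.21, -0.25 and -0.39. In Tip60 knockdown Sox2 was called lower (-0.21) and Tdgf1 higher (0.38), beside 9.5% and 14.8% of all genes.

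RFX5, RFXAP and RFXANK form the RFX complex, which binds the X box in the promoters of MHC genes together with CREB at the adjoining part of that box and NF-Y at the Y box. CIITA, the class II transactivator, does not bind DNA itself and is recruited by these factors; without RFX or CIITA, class II genes are silent in antigen-presenting cells. Class I heavy chains such as H2-K1 and H2-D1 pair with beta-2-microglobulin (B2m) and receive peptides through the TAP transporter and tapasin, and embryonic stem cells are known for carrying little class I on their surface.

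Probe sequences are shown for the members that changed most, because class I genes are close copies of each other. Those shown hold probe 2 of H2-K1, although that gene was read from probe 1. They are given 5′ to 3′ as the scanner files hold them, all in lower case:
Rfxap probe 1: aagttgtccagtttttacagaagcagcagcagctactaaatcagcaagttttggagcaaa
H2-K1 probe 2: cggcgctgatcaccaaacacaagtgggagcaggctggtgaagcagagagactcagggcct
H2-D1 probe 1: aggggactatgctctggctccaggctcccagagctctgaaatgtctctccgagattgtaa
H2-T23 probe 1: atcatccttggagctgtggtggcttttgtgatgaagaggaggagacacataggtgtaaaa
Set without gaps against every probe of another gene on the array, the Rfxap probe matched none at more than 32 of its 60 bases and the H2-D1 probe none at more than 31. The H2-T23 probe matched a probe of H2-Q7 at 50 of 60 bases, H2-K1 probe 2 matched a probe of H2-Q10 at 40, H2-K1 probe 1 matched a probe named LOC56628 at 49, and H2-K1 probe 3 matched a probe of H2-Bl at 46. Probes were set against other probes and not against transcripts, so a low match does not show that a probe reads a single gene. The share of signal that comes from near copies was not tested, so the H2-K1, H2-D1 and H2-T23 values are uncertain to that extent.

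Promoters that hold a pair of motifs for these factors are shown next, for 3 members and 3 class II genes that rose, because RFX, CREB and NF-Y bind there. Each line gives the 140 bases before the transcription start in RefSeq's annotation of mouse build GRCm38.p6. The promoter table holds 8 of the 10 members, and Rfxap and Ciita are not among them. Capitals in the class I and B2m promoters mark TGACG, the core of a CREB site, and the ATTGG (the core of the Y box, read on the other strand) that begins 24 or 25 bases after it. For H2-K1, which has 2 annotated starts, the window before the second is shown:
H2-K1, chr17:34000334-34000473, minus strand: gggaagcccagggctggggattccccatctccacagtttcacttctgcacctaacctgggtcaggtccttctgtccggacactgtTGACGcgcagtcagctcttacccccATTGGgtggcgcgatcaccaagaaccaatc
H2-D1, chr17:35262954-35263093, plus strand: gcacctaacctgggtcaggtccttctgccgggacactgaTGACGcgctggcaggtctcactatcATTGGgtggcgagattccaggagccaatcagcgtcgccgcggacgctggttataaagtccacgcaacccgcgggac
B2m, chr2:122147547-122147686, plus strand: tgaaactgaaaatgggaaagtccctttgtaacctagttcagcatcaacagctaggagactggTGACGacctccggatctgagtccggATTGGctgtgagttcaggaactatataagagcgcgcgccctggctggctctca
Capitals in the class II promoters mark GNAAC, part of the X box, and the ATTGG that begins 30 to 33 bases after it:
H2-Eb1, chr17:34305727-34305866, plus strand: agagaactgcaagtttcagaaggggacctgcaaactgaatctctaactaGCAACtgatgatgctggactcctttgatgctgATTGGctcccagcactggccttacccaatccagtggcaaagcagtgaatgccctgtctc
H2-Oa, chr17:34092239-34092378, plus strand: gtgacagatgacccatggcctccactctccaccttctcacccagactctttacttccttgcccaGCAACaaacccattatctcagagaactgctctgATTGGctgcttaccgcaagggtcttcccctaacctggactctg
H2-DMb1, chr17:34153051-34153190, plus strand: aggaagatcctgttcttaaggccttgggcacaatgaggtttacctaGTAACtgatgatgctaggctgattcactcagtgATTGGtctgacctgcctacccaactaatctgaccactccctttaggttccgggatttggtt
Both pairs of motifs and their spacings were chosen after these promoters had been read. The TGACG pair began at -55 in H2-K1, -101 in H2-D1 and -78 in B2m, counted from the start. Searched on both strands of 32851 promoters of 300 bases each, it was in 0.131% of them, and the GNAAC pair was in 0.712%. The listed genes were searched on the gene's own strand only, for which the shares over all promoters were 0.079% and 0.353%. The TGACG pair was in the 3 members shown, in H2-Q7 and H2-M3 among 19 other class I and class I-like genes of the table, and in 0 of 8 class II genes. The GNAAC pair was in 0 members and in 6 of the 8 class II genes, of which H2-Aa, H2-Eb2 and H2-Ob were too dim to be tested. H2-T23, Rfx5, H2-DMa and H2-DMb2, which like the genes shown were called in p400 knockdown, had neither pair in this window. Rfxank, Tap1 and Tapbp had neither as well. ATTGG alone was in 37.4% of all promoters, TGACG alone in 20.8% and GNAAC alone in 84.8%. The motifs of a pair do not overlap.

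Rfxap encodes the RFX-associated protein, the subunit that joins RFX5 and RFXANK on DNA, and its first probe carried the largest changes of the set. Probe 1, at chr3:54933706-54933765 of build mm7 per the array's design and named for NM_133231, had processed signals of 12024, 12967, 18270 and 15433 in p400 knockdown RNA on replicates 1 to 4, against 2312, 2475, 2129 and 3254 in EGFP RNA of the same arrays. The log2 ratios were 2.37, 2.43, 3.07 and 2.15. The knockdown signal was the higher on all 4 arrays, and the fitted difference was 2.51 ± 0.12 (SE) on the log2 scale, or 5.68-fold. On the single-colour arrays, where a level is the log2 processed signal minus the array's 75th percentile, EGFP replicates 1 to 4 stood at 0.93, 1.14, 0.97 and 1.21. Tip60 replicates 1, 2 and 4 stood at 2.10, 1.81 and 1.86, all above the EGFP arrays. The fitted difference was 0.86 ± 0.10, or 1.81-fold. The p400 effect was thus the greater by 1.65 ± 0.16 on the log2 scale, which is the difference that chose the gene. The probe was well above background on all arrays, and leaving out any single array kept the p400 value between 2.32 and 2.62 and the Tip60 value between 0.77 and 0.91.

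The second Rfxap probe did not show this rise. Probe 2, at chr3:54932531-54932590 and named for a separate cDNA clone, had log2 ratios of -0.28, -0.05, -0.42 and -0.03 in p400 knockdown, with a fitted difference of -0.19 ± 0.07, which was -0.76 with the deposited LogRatio. Its EGFP levels were -4.98, -5.13, -5.44 and -5.05 and its Tip60 levels -5.24, -5.73 and -5.21, which overlap. The probe was well above background in both RNAs of all 4 p400 arrays and in 2 of 3 Tip60 arrays. Its processed signals ran from 37 to 93 in either channel of the p400 arrays. The 2 probes of the gene therefore disagree, and the rise of Rfxap rests on probe 1.

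**Figure D1:**
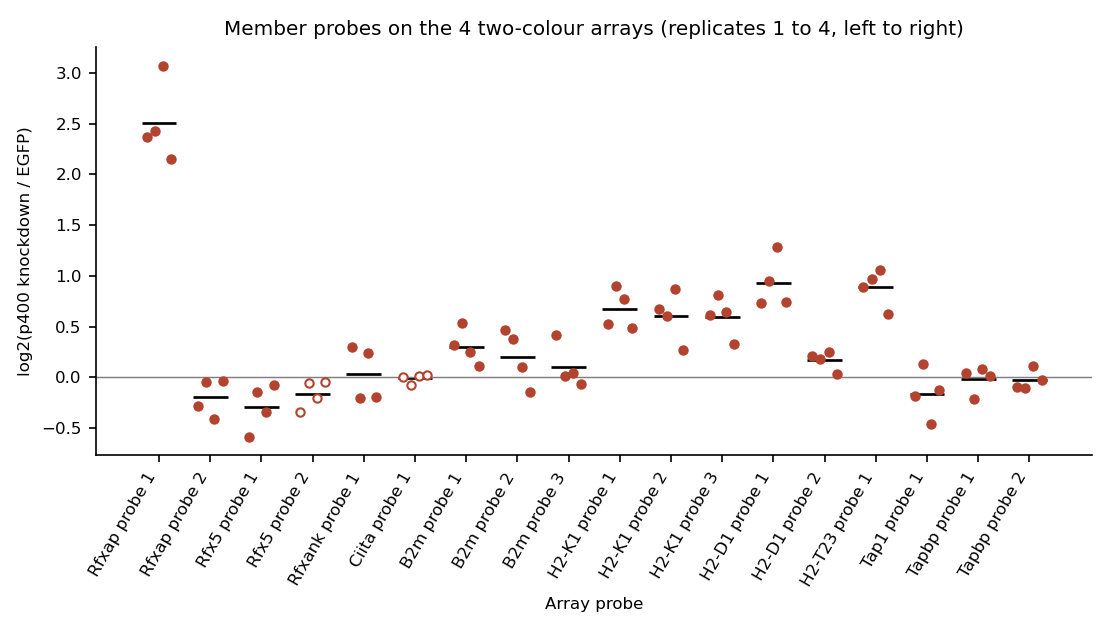
Log2 ratio of p400 knockdown over EGFP (vertical axis) for each of the 18 member probes (horizontal axis). Points are the 4 arrays, lines their means, and open points mark probes that were well above background in knockdown RNA on fewer than 4 arrays. Rfxap probe 1 stands between 2.15 and 3.07, the class I heavy chain probes other than H2-D1 probe 2 between 0.27 and 1.28, and the remaining probes between -0.59 and 0.54.

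Among the 9 other members, 4 rose and 1 fell in p400 knockdown (limma, adjusted p below 0.05 over all probes), beside 20.1% of 18689 genes that rose and 14.9% that fell (35% in either direction), each gene read from its brightest tested probe. With median centring in place of loess the median over all genes moved from 0.0086 to -0.11 on the log2 scale, and 15.3% rose and 36% fell. Of all genes called in p400 knockdown, 57.3% were higher with loess, 29.8% with median centring and 77.4% with arrays scaled to a common spread. For Tip60, normexp with quantile normalization turned the higher share of calls from 60.9% to 50.3%. The members that rose were H2-T23, H2-D1, H2-K1 and B2m, and the member that fell was Rfx5. In Tip60 knockdown, 2 of 8 tested members rose, H2-T23 and H2-D1, and 0 fell, beside 14.8% and 9.5% of 16948 genes. With so many genes called on these arrays, the share of members called in Tip60 knockdown was near the background of 24.3% called in either direction. Here and below, fits that leave out a p400 array also drop the dye term, so the effects of the array and of that term cannot be told apart. Leaving out p400 replicate 1, 2 or 3 left 3 members called in p400 knockdown. Leaving out EGFP replicate 1, 2 or 3 or Tip60 replicate 1 left 1 in Tip60 knockdown.

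Neither partner of Rfxap in the complex was called higher. Rfx5 encodes the DNA-binding subunit. Its probe 1 had log2 ratios of -0.59, -0.14, -0.35 and -0.07 in p400 knockdown, all below 0, and it fell by 0.29 ± 0.07 on the log2 scale (limma adjusted p = 0.0265). That call was lost when any of the 4 arrays was left out together with the dye term (limma adjusted p = 0.180, 0.0993, 0.194 and 0.0602 without replicates 1 to 4). With all 4 arrays and no dye term it was lost too (limma adjusted p = 0.067). With the deposited LogRatio, which rests on the processed signal, the probe stood at -0.77 (limma adjusted p = 0.00587). In the Tip60 experiment the EGFP levels of this probe ran from -3.41 to -3.15 and the Tip60 levels were -3.48, -3.39 and -3.63, which overlap, with a difference of -0.23 ± 0.09 (limma adjusted p = 0.110) that passed with normexp and quantile normalization (-0.26, limma adjusted p = 0.0299). Rfx5 probe 2 gave -0.16 ± 0.07 in p400 knockdown (limma adjusted p = 0.109), and -0.86 with LogRatio (limma adjusted p = 0.00859). It was well above background in 0 of 4 EGFP and 1 of 3 Tip60 single-colour arrays and was not tested there.

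Rfxank, the ankyrin-repeat subunit, had p400 log2 ratios of 0.30, -0.20, 0.24 and -0.19, on both sides of 0 and alternating with the dye, for a fitted difference of 0.04 ± 0.06 (limma adjusted p = 0.693). With median centring it turned direction and was called lower (-0.23, limma adjusted p = 0.0313). Its EGFP levels were 1.13, 1.09, 1.16 and 1.09 and its Tip60 levels 1.12, 1.22 and 1.28, a difference of 0.09 ± 0.06 (limma adjusted p = 0.323).

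Ciita was at the edge of detection. Its probe was well above background in knockdown RNA on 3 and in EGFP RNA on 2 of the p400 arrays, and its log2 ratios were 0.00, -0.07, 0.02 and 0.02 (difference -0.01 ± 0.06, limma adjusted p = 0.925). On the single-colour arrays it was well above background in 0 of 4 EGFP and 1 of 3 Tip60 arrays, and it was not tested. Its processed signals ran from 12 to 32 in either channel of the p400 arrays. With the deposited LogRatio it stood at 0.45 and passed (limma adjusted p = 0.0356). With median centring in place of loess it stood at 0.09 and did not pass (limma adjusted p = 0.345). Its direction and call thus changed with the processing, and the cause was not tested.

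The class I heavy chains rose in p400 knockdown on every array. H2-T23, which encodes the non-classical molecule Qa-1, had log2 ratios of 0.89, 0.97, 1.06 and 0.62, and it rose by 0.89 ± 0.08 (1.85-fold, limma adjusted p = 0.00158). H2-D1, a classical heavy chain, had ratios of 0.73, 0.95, 1.28 and 0.74 with probe 1 and rose by 0.93 ± 0.10 (1.90-fold, limma adjusted p = 0.00239). H2-K1, also a classical heavy chain, had ratios of 0.53, 0.90, 0.77 and 0.48 with probe 1 and rose by 0.67 ± 0.09 (1.59-fold, limma adjusted p = 0.00425). Its 2 other probes rose by 0.60 each, with limma adjusted p = 0.0042 and 0.0058. With median centring H2-K1 probe 1 stood at 0.36 (limma adjusted p = 0.0221), H2-D1 probe 1 at 0.64 and H2-T23 at 0.60. Replicate 4 gave the lowest ratio with H2-T23 and with every H2-K1 probe. The calls of H2-T23 and of H2-K1 probe 1 held in all 11 alternatives fitted to that probe, and that of H2-D1 was lost in 1 of them, with arrays scaled to a common spread (limma adjusted p = 0.051).

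Of these heavy chains, H2-T23 and H2-D1 also rose in Tip60 knockdown. The H2-T23 levels were 0.87, 1.0, 0.96 and 1.03 in EGFP and 1.52, 1.43 and 1.38 in Tip60 knockdown, with no overlap, and the rise was 0.48 ± 0.06 (1.39-fold, limma adjusted p = 0.00207). Within slide 2 the difference was 0.49 and within slide 3, with 1 Tip60 array, it was 0.50. The H2-D1 probe 1 levels were 1.67, 1.67, 1.81 and 1.87 in EGFP and 2.04, 2.24 and 1.98 in Tip60 knockdown, also without overlap, and the rise was 0.33 ± 0.09 (1.26-fold, limma adjusted p = 0.0326). Its within-slide differences were 0.37 and 0.27. The H2-D1 call was lost without EGFP replicate 1, 2 or 3 and without Tip60 replicate 1 or 2 (limma adjusted p from 0.0544 to 0.0883).

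The H2-K1 probe 1 levels were 2.55, 2.63, 2.50 and 2.64 in EGFP and 2.78, 2.68 and 2.77 in Tip60 knockdown. The groups did not overlap, but the difference of 0.16 ± 0.06 missed the threshold (limma adjusted p = 0.0986), as did those of probe 2 (0.30, limma adjusted p = 0.114) and probe 3 (0.40, limma adjusted p = 0.0525). Probe 3 passed with normexp and quantile normalization (0.36, limma adjusted p = 0.0443). The mean of the H2-K1 probes passed as well (0.29, limma adjusted p = 0.0272). H2-D1 probe 2, named for a different transcript, is placed by the array's design at chr17:34358688-34358747, away from probe 1 at chr17:33361850-33362082. Whether probe 2 reads H2-D1 was not tested. Probe 2 was well above background in 0 of 4 EGFP and 3 of 3 Tip60 arrays. It was thus tested only through the group where it was high. It was at least 1.37-fold higher in Tip60 knockdown (limma adjusted p = 0.0335), with group means of -5.24 and -6.83. That bound sets the bright group's mean against the lowest signal well above background on each EGFP array. The call was lost without EGFP replicate 3 or any Tip60 replicate (limma adjusted p from 0.0579 to 0.105). With normexp and quantile normalization its Tip60 difference was 0.18 (limma adjusted p = 0.155). In p400 knockdown the same probe gave 0.17 ± 0.07 (limma adjusted p = 0.0984). It stood at 0.99 with LogRatio, 0.23 with median centring and was also called with the series matrix values (limma adjusted p = 0.00173, 0.0416 and 0.0358).

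**Figure D2:**
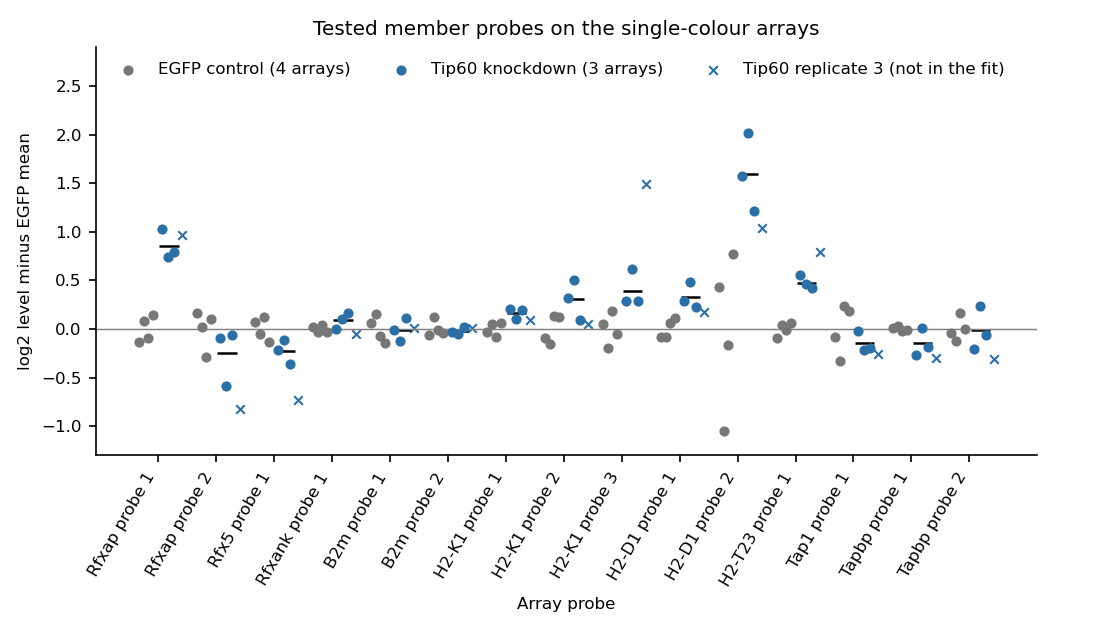
Log2 level minus the mean of the EGFP arrays (vertical axis) for the 15 member probes tested in the Tip60 fit (horizontal axis). Grey points are the 4 EGFP arrays, blue points Tip60 replicates 1, 2 and 4 with their mean as a line, and crosses Tip60 replicate 3, which was not in the fit. Rfxap probe 1, H2-D1 probe 1 and H2-T23 have every blue point above the grey points, and the B2m probes do not.

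B2m, the shared light chain, had smaller p400 values than the heavy chains. Its brightest probe had p400 log2 ratios of 0.32, 0.54, 0.25 and 0.11, and it rose by 0.30 ± 0.09 (1.23-fold, limma adjusted p = 0.0415). The call was lost without replicate 1, 2 or 3, in fits that also dropped the dye term (limma adjusted p = 0.0981, 0.136 and 0.0998). It was also lost with LogRatio (0.29, limma adjusted p = 0.0629). The value itself fell to 0.05 with median centring in place of loess (limma adjusted p = 0.663). B2m probes 2 and 3 gave 0.20 and 0.10 and did not pass (limma adjusted p = 0.203 and 0.388). The mean of the B2m probes did not pass either (0.20, limma adjusted p = 0.114). In Tip60 knockdown the EGFP levels of probe 1 were 0.40, 0.50, 0.27 and 0.20 and the Tip60 levels 0.33, 0.22 and 0.45, a difference of -0.01 ± 0.09 (limma adjusted p = 0.967).

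The 2 peptide-loading members did not pass in either knockdown with loess and the 75th percentile. Tap1, a subunit of the peptide transporter, had p400 log2 ratios of -0.18, 0.13, -0.46 and -0.13 (difference -0.16 ± 0.08, limma adjusted p = 0.183), and the difference was -0.82 with LogRatio (limma adjusted p = 0.0719). Its EGFP levels ran from -3.19 to -2.62 and its Tip60 levels from -3.07 to -2.88 (difference -0.14 ± 0.14, limma adjusted p = 0.519). Tapbp, which encodes tapasin, the bridge between the transporter and the heavy chain, had ratios from -0.21 to 0.08 with probe 1 (difference -0.02 ± 0.07, limma adjusted p = 0.848), and with median centring that probe was called lower (-0.30, limma adjusted p = 0.015). Its Tip60 difference was -0.15 ± 0.07 (limma adjusted p = 0.204), and probe 2 gave -0.03 and -0.01 in p400 and Tip60 knockdown (limma adjusted p = 0.785 and 0.959).

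The member effects were then set against each other between the knockdowns. The p400 effect minus the Tip60 effect was 0.51 ± 0.11 for H2-K1 probe 1, 0.60 ± 0.14 for H2-D1 probe 1, 0.41 ± 0.11 for H2-T23 and 0.31 ± 0.13 for B2m probe 1. The adjusted p of these differences, from the 2 limma fits over 25133 probes, was 0.0652, 0.069, 0.0874 and 0.204. Of the 8 members tested, 0 passed, beside 3.45% of all probes, of which 6105 had an unadjusted p below 0.05. With Welch-Satterthwaite degrees of freedom in place of the smaller of the fits', H2-K1, H2-D1 and H2-T23 passed (adjusted p = 0.014, 0.0137 and 0.0256 from the limma fits). The share of all probes that passed with those degrees of freedom was not taken, so this count has no background beside it. With these values, whether class I followed Rfxap in rising further with p400 loss depended on the degrees of freedom. The p400 effects themselves depended on the normalization. With median centring they were 0.36 for H2-K1 probe 1, 0.64 for H2-D1 probe 1, 0.60 for H2-T23 and 0.05 for B2m probe 1. The Tip60 effects were 0.16, 0.33, 0.48 and -0.01, and the difference was not tested with median centring. For Rfx5, Rfxank, Tap1 and Tapbp the differences lay between -0.06 and 0.13. With LogRatio for the p400 arrays they were -0.54 for Rfx5 and -0.68 for Tap1 (adjusted p = 0.0926 and 0.240 from the limma fits).

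Class II genes, the targets RFX and CIITA are best known for, were higher in both knockdowns. All 11 genes of the class II list have probes on the array, and 7 passed the filter on dim probes. H2-Aa, H2-Ea, H2-Eb2 and H2-Ob were below that limit throughout both fits. The brightest probes of the 7 were well above background in EGFP RNA on all 4 p400 arrays and on at least 3 of the 4 EGFP single-colour arrays, so they did not enter through the knockdown arrays alone. All 7 rose in p400 knockdown, beside 20.1% of all genes, with a median log2 difference of 0.45, beside 0.00858 over all genes tested. In Tip60 knockdown 6 of the 7 rose, beside 14.8% of all genes, with a median of 0.75, beside 0.00655.

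Cd74, the invariant chain that escorts class II dimers, had p400 log2 ratios of 1.33, 1.03, 0.54 and 0.65 and rose by 0.89 ± 0.14 (limma adjusted p = 0.00607). Its levels were -0.83, -2.04, -1.48 and -1.78 in EGFP and -0.75, -0.54 and -0.32 in Tip60 knockdown, a rise of 0.99 ± 0.27 (limma adjusted p = 0.0382). EGFP replicate 1 stood apart from the other EGFP arrays and within 0.08 of the lowest Tip60 array. Leaving out any 1 of 6 of the 7 arrays, EGFP replicate 1 being the exception, took the Tip60 call of Cd74 away (limma adjusted p from 0.0616 to 0.121).

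H2-Ab1, a classical beta chain, had p400 ratios of 1.04, 0.33, 0.78 and 0.16 and rose by 0.58 ± 0.08 (limma adjusted p = 0.00381). Its ratios alternated with the dye, the higher ones on the arrays where p400 RNA carried Cy5. Its levels rose from -2.99, -2.80, -2.77 and -3.0 in EGFP to -2.07, -1.90 and -2.16 in Tip60 knockdown, by 0.85 ± 0.09 (limma adjusted p = 0.000803). H2-Eb1, the beta chain of the other isotype, had p400 ratios of 0.47, 0.53, 0.55 and 0.15 and rose by 0.42 ± 0.08 (limma adjusted p = 0.0126). In Tip60 knockdown it rose by 0.75 ± 0.13 (limma adjusted p = 0.00592).

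H2-DMa and H2-DMb1 encode chains of the peptide exchanger H2-DM. H2-DMb1 had p400 ratios of 1.01, 0.77, 0.75 and 0.49 and rose by 0.75 ± 0.08 (limma adjusted p = 0.00226). It rose by 0.65 ± 0.09 in Tip60 knockdown (limma adjusted p = 0.00266). H2-DMa rose by 0.37 ± 0.07 and 0.41 ± 0.10 (limma adjusted p = 0.0109 and 0.0274). Its p400 ratios of 0.64, 0.23, 0.51 and 0.08 alternated with the dye, as those of H2-Ab1 did. H2-DMb2, the second beta gene, rose by 0.32 ± 0.08 in p400 knockdown (limma adjusted p = 0.0228). Its Tip60 levels of -3.16, -4.07 and -4.03 lay above the EGFP levels of -4.49 to -4.39, but the difference of 0.69 ± 0.21 did not pass (limma adjusted p = 0.0577).

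H2-Oa, a chain of the H2-DM inhibitor H2-O, showed the largest class II change in Tip60 knockdown. Its levels were -5.35, -5.53, -5.47 and -5.93 in EGFP and -3.72, -3.90 and -4.02 in Tip60 knockdown, a rise of 1.69 ± 0.14 (limma adjusted p = 0.000243). In p400 knockdown its ratios were 0.77, 0.44, 0.43 and 0.16, a rise of 0.45 ± 0.09 (limma adjusted p = 0.0121). H2-Oa was the only class II gene whose effects differed between the knockdowns, by -1.24 ± 0.17 for p400 minus Tip60 (adjusted p = 0.0324 from the limma fits). The fits treat dim signals differently. With LogRatio for the p400 arrays, so that processed signals stood on both sides, the H2-Oa difference was -0.86 and did not pass (adjusted p = 0.0554 from the limma fits). With normexp background correction in both, a comparison added after the data had been seen, the H2-Oa difference was -0.12 (adjusted p = 0.565 from the limma fits) and its Tip60 rise 0.57.

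**Figure D3:**
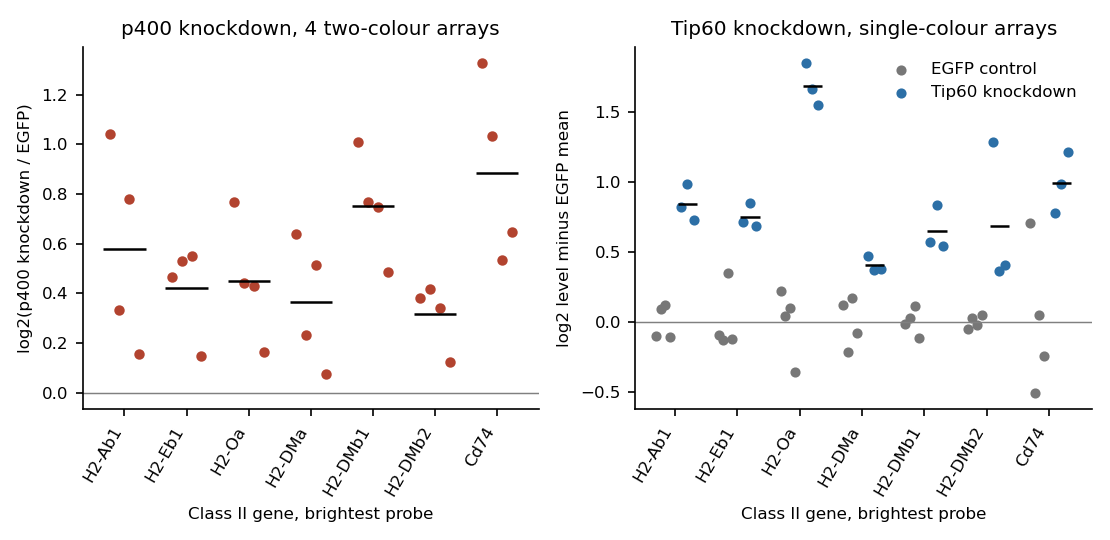
Class II genes that passed the filter, each by its brightest probe (horizontal axes). The left panel plots log2 ratios of p400 knockdown over EGFP on 4 arrays and the right panel log2 levels minus the EGFP mean, with EGFP arrays in grey and Tip60 replicates 1, 2 and 4 in blue; lines are means. Every p400 ratio is above 0, and replicate 4, the rightmost point, is the lowest for 6 of the 7 genes, the exception being Cd74.

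The class II counts changed with the arrays included and with the handling of dim signals. Without p400 replicate 1, 2 or 3, the p400 count was 4, 3 and 2 of the 7, while without replicate 4 it was 7. These p400 fits also dropped the dye term. H2-DMa and H2-DMb2 lost their p400 calls without replicate 1, 2 or 3, H2-Ab1 without replicate 1 or 3, and H2-Eb1 and H2-Oa without replicate 2 or 3 (limma adjusted p from 0.0568 to 0.150). Cd74 and H2-DMb1 kept theirs each time. In Tip60 knockdown the count was 4 to 6 when any array was left out, 3 within slide 2 alone and 7 with the slide as a block. H2-DMa lost its Tip60 call without EGFP replicate 4 or any Tip60 replicate (limma adjusted p from 0.0627 to 0.0834). With normexp and quantile normalization the Tip60 differences of the 7 genes were 0.14 to 0.83, and 5 passed. With normexp on both sides 1 of the 7, H2-Oa, was higher in Tip60 than in p400 knockdown. With processed signals on both sides, that is LogRatio for p400, it was 3 of the 7 (H2-Ab1, H2-Oa and H2-DMb2), and with normexp for p400 and processed signals for Tip60 it was 6 of the 7, so the order of the knockdowns for class II genes was not settled by these arrays.

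Most of the other class I and class I-like genes that could be tested rose. Of 26 listed, 21 are on the array and 12 were tested. In p400 knockdown 10 rose and 1 fell (median 0.67), beside 20.1% and 14.9% of all genes. In Tip60 knockdown 8 rose and 0 fell (median 0.44), beside 14.8% and 9.5%. H2-Bl, a class I gene known from blastocysts, had p400 ratios of 1.56, 1.23, 0.93 and 0.91 and rose by 1.16 ± 0.12 (limma adjusted p = 0.00183), and it rose by 0.85 ± 0.06 in Tip60 knockdown (limma adjusted p = 7.8e-05). H2-Q10, H2-Q2 and H2-Q8 rose by 1.04, 0.99 and 0.95 in p400 knockdown (limma adjusted p = 0.000889, 0.000762 and 0.00245). In Tip60 knockdown H2-Q10 and H2-Q2 rose by 0.57 and 0.56 (limma adjusted p = 0.00635 and 0.0046), and H2-Q8 stood at 0.21 (limma adjusted p = 0.0822). The gene that fell in p400 knockdown, named after its value was seen, was Cd1d1 (-0.30, limma adjusted p = 0.0148), a lipid-presenting molecule. The Q-region genes are known near copies of each other and of H2-K1 and H2-D1, so probes of these genes may share signal.

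The difference between the knockdowns was tested for the listed genes as well. H2-Q8 was higher with p400 than with Tip60 knockdown by 0.74 ± 0.13 (adjusted p = 0.0448 from the limma fits). Psmb9, an interferon-inducible proteasome subunit, was higher by 0.51 ± 0.09 (adjusted p = 0.0438 from the limma fits). Together with H2-Oa these were 3 of the 46 listed genes compared, beside 3.45% of all probes. Each of the 3 lost its call without p400 replicate 1, 2 or 3, again with the dye term dropped (adjusted p from 0.0574 to 0.167 from the limma fits). Leaving out some of the single-colour arrays did so too. The Psmb9 call was also lost with LogRatio (0.54, adjusted p = 0.0569 from the limma fits).

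Of 10 other peptide-processing and loading genes tested, 4 rose and 0 fell in p400 knockdown (median 0.09), beside 20.1% and 14.9% of all genes. In Tip60 knockdown 1 rose, beside 14.8% of all genes, which is no more than the background. Psmb9 had p400 ratios of 0.90, 0.52, 0.85 and 0.55 and rose by 0.70 ± 0.06 (limma adjusted p = 0.00144), and it stood at 0.19 ± 0.06 in Tip60 knockdown (limma adjusted p = 0.0649). Psmb8, its partner subunit, rose by 0.43 ± 0.07, Tapbpl, a tapasin-like peptide editor, by 0.37 ± 0.07, and Pdia3, a disulfide isomerase of the loading complex, by 0.33 ± 0.07 (limma adjusted p = 0.00643, 0.013 and 0.0157). Tapbpl was the gene that rose in Tip60 knockdown (0.61 ± 0.08, limma adjusted p = 0.00197).

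In p400 knockdown the factors that regulate MHC genes beside RFX were called in shares near those of all genes. Among 13 tested regulators, 2 rose and 3 fell in p400 knockdown (median 0.08), beside 20.1% and 14.9% of all genes. In Tip60 knockdown 0 rose and 2 fell (median -0.08), beside 14.8% and 9.5%. Creb1, which encodes the X-box partner CREB, fell by 0.42 ± 0.08 with p400 and by 0.58 ± 0.07 with Tip60 knockdown (limma adjusted p = 0.00888 and 0.00167). Nfkb1, a NF-kappaB subunit, fell by 0.51 ± 0.08 and 0.43 ± 0.05 (limma adjusted p = 0.00567 and 0.00136). Nfyb, a subunit of the Y-box factor, fell by 0.35 ± 0.07 with p400 knockdown (limma adjusted p = 0.0126) and stood at -0.19 with Tip60 knockdown (limma adjusted p = 0.0788). Jak1, an interferon-signalling kinase, was among the genes that rose with p400 knockdown (0.40 ± 0.07, limma adjusted p = 0.0086). Of 5 tested relatives of Rfx5 outside the MHC complex, Rfx7 fell in both knockdowns, by 0.27 and 0.32 (limma adjusted p = 0.0396 and 0.022), and 0 rose.

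**Figure D4:**
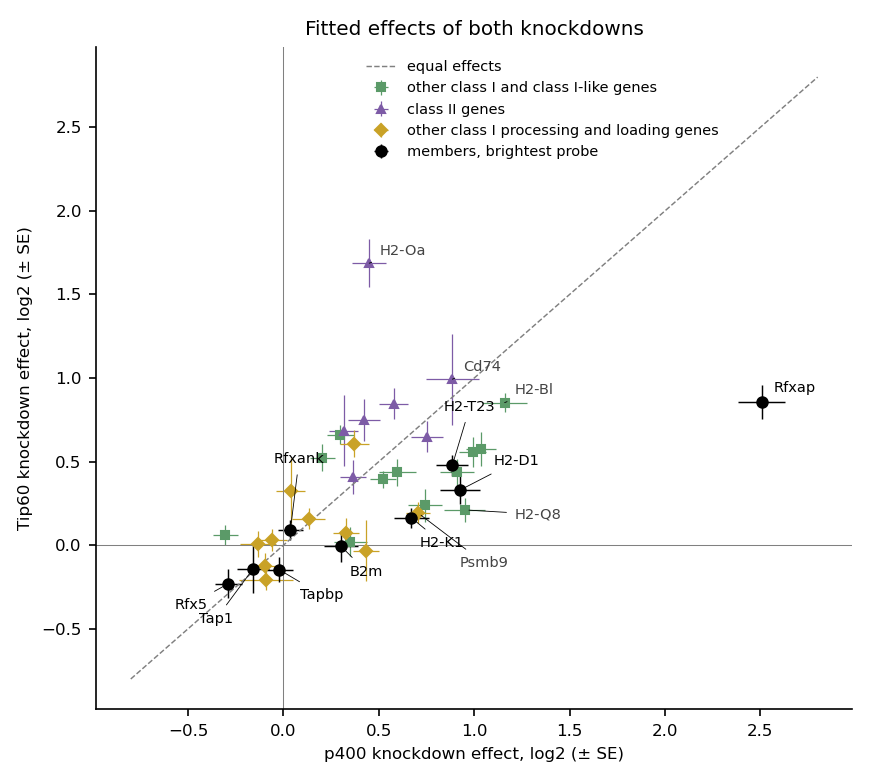
Fitted log2 effect of p400 knockdown (horizontal axis) against that of Tip60 knockdown (vertical axis), with standard errors as bars. Black circles are members by their brightest probe, other symbols the class I, class II and processing genes tested in both fits, and the dashed line marks equal effects. Rfxap lies far to the right at 2.51 and 0.86, the class I heavy chains lie below the line, and 6 of the 7 class II genes lie above it.

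Markers of other cell types were read on the same arrays. Of 6 tested fibroblast markers, 4 rose with p400 knockdown (Thy1 by 1.43, Col1a1 by 0.80, Col1a2 by 0.49 and Pdgfra by 0.47), beside 20.1% of all genes. With Tip60 knockdown 3 rose (Thy1, Pdgfra and Pdgfrb), beside 14.8%. Their summed processed signal was 4744 to 6006 in p400 knockdown RNA against 2191 to 3100 in EGFP RNA of the same arrays, and 5580 to 6248 in Tip60 against 3304 to 4355 in EGFP arrays. Lum was well above background on 0 arrays of the fits and Dcn on 2, both Tip60. Of 10 leukocyte markers, 6 were well above background in p400 knockdown RNA on all 4 arrays, 4 on all Tip60 arrays of the fit and 3 on all EGFP arrays, while Ptprc, the pan-leukocyte antigen, was so on 0 arrays of the fits. Of those tested, 0 of 6 tested changed with p400 and 0 of 4 with Tip60 knockdown. Their summed signal was 905 to 1367 against 1083 to 1320 and 2085 to 2457 against 1648 to 2470, which overlap. The part of these cell types in the class I and class II rises was not tested.

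The genes whose values lay nearest to those of Rfxap probe 1 were taken over 13671 genes tested in both fits, by Euclidean distance over 4 p400 ratios and 3 Tip60 levels minus the EGFP mean. They were Cab39 at a distance of 0.52, Nelfa at 0.81, Alyref2 at 0.81, Antxr1 at 1.04 and Scamp1 at 1.05. Cab39 had p400 ratios of 2.19, 2.65, 3.03 and 2.05, with a fitted p400 difference of 2.48 and a Tip60 difference of 1.09. No member and no listed MHC gene was among the 5. The distance depends on the size of the change, and the largest p400 rise among the listed MHC genes was 1.16 (H2-Bl). Their absence was thus fixed by size and does not answer whether they follow Rfxap.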

How the data were processed

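Gene expression was measured on Agilent arrays read with Feature Extraction 9.5.1.1, per the file headers, which also place the probes on mouse build mm7. The deposited scanner files hold intensities per spot (mean signal, median background and a processed signal after background subtraction) and, for two-colour arrays, a LogRatio that is the log10 ratio of red over green, per the file headers. Log2 values in the deposited series matrix, whose normalization is not given in the sources used here, were an alternative only.

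For the p400 arrays, normexp (offset 50) and loess, with 1639 control spots at weight 0, gave log2 ratios, fitted with limma 3.58.1 (R 4.3.3) with the dye as a term. For the single-colour arrays, log2 processed signal minus the array's 75th percentile was fitted, with 3 Tip60 and 4 EGFP arrays. Probes were tested where 3 or more arrays of one RNA had them well above background, 27948 and 25299 of them, with Benjamini-Hochberg adjustment over all. A gene was read from its brightest tested probe. The difference of the effects used the summed squared standard errors and the smaller degrees of freedom. Of the probes, 22951 were named by accession, 6659 by symbol, 3109 by synonym and 8455 by the files.

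The members and gene lists were chosen with earlier results of these data known. Named were all member probes, all class II genes, up to 4 genes past the threshold per other list by size of change, and the 5 genes nearest to Rfxap. One listed gene is counted but not reported here by name. Alternatives changed the background correction, normalization, filter, dye term, slide, replicate block, probe choice, threshold and the arrays included. Fits without a p400 array had no dye term. The scripts were tested on simulated data.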

Additional observations from a re-analysis of the deposited data

Results flagged for a closer look

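Tip60 replicate 3, which entered 2 alternatives only, was above all 4 EGFP arrays with 5 member probes that were tested and well above background on it. Its log2 level was 2.03 for Rfxap probe 1 (EGFP 0.93 to 1.21), 1.75 for H2-T23 (EGFP 0.87 to 1.03) and 1.93 for H2-D1 probe 1 (EGFP 1.67 to 1.87). For H2-K1 probe 1 it was 2.67, just above the highest EGFP array at 2.64. For H2-K1 probe 3 it was 1.24, while the EGFP arrays ran from -0.44 to -0.06 and the other Tip60 arrays from 0.03 to 0.37. That array correlated with the other single-colour arrays at 0.948 to 0.961 over all probes, and the others with each other at 0.979 or more.

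The effects of the knockdowns differed by the test of the difference itself for 3 listed genes, as p400 minus Tip60: H2-Oa at -1.24, H2-Q8 at 0.74 and Psmb9 at 0.51 on the log2 scale (adjusted p = 0.0324, 0.0448 and 0.0438 from the limma fits). With normexp in both fits the values were -0.12, 0.79 and 0.50, and the adjusted p from the limma fits was 0.565, 0.0573 and 0.068.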

How the results depend on the processing

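In p400 knockdown, 5 members, 28 listed genes and 7 class II genes were called. With arrays scaled to a common spread the first 2 counts were 2 and 16, and with a further minimum of 1.5-fold the 3 counts were 3, 10 and 2. Leaving out each p400 replicate, and the dye term with it, gave 3 to 4 members, 14 to 24 listed genes and 2 to 7 class II genes. Of all genes 9.8% to 15.7% were then higher and 6.23% to 9.42% lower. In Tip60 knockdown, 2 of 8 members, 18 of 47 listed genes and 6 of 7 class II genes were called, beside 24.3% of all genes. Members numbered 1 with no filter on dim probes, beside 7.22% of all genes higher and 2.48% lower. Within slide 2, members, listed genes and class II genes were 1, 11 and 3, beside 7.8% and 2.04%. At their highest over all alternatives the 3 counts were 3, 23 and 7. With a minimum of 1.5-fold, 0 members and 8 listed genes were called in Tip60 knockdown, beside 7.58% of all genes higher and 0.767% lower. Leaving out each array gave 1 to 2 members, 16 to 17 listed genes and 4 to 6 class II genes. Of all genes 11.7% to 13.7% were then higher and 5.5% to 7.54% lower. For the difference between the knockdowns, Welch-Satterthwaite degrees of freedom gave 3 members in place of 0, with no share of all probes taken for that setting. Leaving out each array gave 0. Over all probes, the count called fell from 9258 to 3389 with scaled p400 arrays and to 2355 with the 1.5-fold minimum, and it was 3990 to 6500 without single p400 arrays. For Tip60 it fell from 5742 to 3635 with no filter, 2237 within slide 2 and 1877 with the 1.5-fold minimum.

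Same-numbered Tip60 and EGFP arrays had correlations of deviations of -0.259, -0.327 and -0.124. The arrays of each such pair lay on different slides, so these values cannot tell whether the replicate numbers pair the arrays. With the replicate block, 0 members and 11 listed genes were called, 2245 probes passed, and H2-T23 had a limma adjusted p of 0.0565. On the p400 arrays 2 values changed direction and passed the threshold. With LogRatio as deposited Ciita was 0.45 (limma adjusted p = 0.0356), and with median centring Rfxank was -0.23 (limma adjusted p = 0.0313). The cause was not tested. Ciita, Tap1, both Rfx5 probes, Rfxap probe 2 and H2-D1 probe 2 had dim signals, and their p400 values moved by 0.46 to 0.82 with LogRatio. B2m probe 3, also dim, moved by 0.16, and the class II gene H2-Eb1 by 0.62. The part of dim signals in these shifts was not tested. Rfxap probe 1 stayed at 2.19 to 2.75 in p400 and 0.77 to 0.91 in Tip60 knockdown.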

Other observations

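A probe of H2-Eb2, a gene below the detection limit throughout the fits, stood at -1.21 on Tip60 replicate 3 and between -8.21 and -6.83 on the other single-colour arrays. A probe of H2-Aa stood at -3.60 there, against -8.22 to -6.45 elsewhere. Both probes were well above background on that array.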
